A study of Mus musculus with 6 samples.

Results

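Rybp occupancy of promoters was compared between Dnmt1 knockout (Dnmt1-KO) and wild-type (WT) mouse embryonic stem (ES) cells by ChIP-chip, in which chromatin is precipitated with an antibody and the recovered DNA is hybridised to arrays of promoter probes. The comparison rests on 4 of the 6 arrays of the study. There are 2 array designs that carry different probes, each genotype was hybridised once to each design, and each Dnmt1-KO array was set against the WT array of its own design. The labels call the first line a constitutive Dnmt1 knockout and the second wild type, and name no strain, clone or parental line for either. The remaining pair of arrays comes from Eed knockout (Eed-KO) ES cells and serves here as a yardstick. All lines were grown in DMEM with 20% fetal bovine serum and ESGRO, a leukaemia inhibitory factor preparation, on irradiated mouse embryonic fibroblast feeders or on gelatin, and the labels do not say which culture had feeders. Chromatin was fixed with 1% formaldehyde for 10 min, sheared to 0.3 to 0.5 kb and precipitated with a Rybp antibody. Precipitated (IP) DNA was labelled with Cy5 and input DNA with Cy3 after amplification with T7 RNA polymerase. With 1 array per genotype and design there is no replicate, so no test was made, and precision is limited by the number of arrays.

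Rybp belongs to the variant forms of Polycomb repressive complex 1 (PRC1), an enzyme that places ubiquitin on histone H2A without needing the H3K27 methylation deposited by PRC2, the complex that contains Eed. One variant PRC1 holds Mga, Max, E2f6 and L3mbtl2 and is known for repressing germline and meiotic genes in ES cells, in part through the E-box CACGTG that Mga and Max recognise. Dnmt1 copies CpG methylation onto newly replicated DNA, and ES cells that lack it lose most DNA methylation but keep dividing. CpG-rich promoters are normally unmethylated and are the usual sites of PRC1.

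The probes below show what was hybridised at the promoters on which the comparison turns. Each lies upstream of the annotated start and is written 5′ to 3′ in lower case with every CpG in capitals. Coordinates are those of the files, in a genome build that none of the sources used here names. All 23 profiled probes that lie inside a RefSeq promoter window of their gene (GRCm38.p6) read along the plus strand. The first 4 probes were higher in Dnmt1-KO and the other 6 were lower, in units explained after the sequences.
Ak1: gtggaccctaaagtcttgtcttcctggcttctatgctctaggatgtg
Psme3: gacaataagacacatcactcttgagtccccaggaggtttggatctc
Hdac6: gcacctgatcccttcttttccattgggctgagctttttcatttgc
Utf1: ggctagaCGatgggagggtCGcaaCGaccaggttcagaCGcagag
Dbx1: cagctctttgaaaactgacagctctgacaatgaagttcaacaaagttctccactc
Tdrkh: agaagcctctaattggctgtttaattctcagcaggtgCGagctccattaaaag
Stag3: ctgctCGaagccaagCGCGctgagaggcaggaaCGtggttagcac
Serf1: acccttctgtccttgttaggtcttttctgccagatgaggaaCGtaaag
H2bc1: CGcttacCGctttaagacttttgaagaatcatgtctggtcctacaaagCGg
Eomes: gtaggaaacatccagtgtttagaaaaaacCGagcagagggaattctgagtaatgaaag

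The Ak1 probe (chr2:32450863-32450909, -626 bp from the start) read -1.12 units in WT and 5.23 in Dnmt1-KO. The Psme3 probe (chr11:101132110-101132155, -208 bp) read 4.16 and 11.29, the Hdac6 probe (chrX:7104971-7105015, -790 bp) -1.39 and 9.20, and the Utf1 probe (chr7:139795047-139795091, -106 bp) 0.81 and 2.97. In the other direction, the Dbx1 probe (chr7:49504917-49504971, -88 bp) read 5.35 in WT and -0.25 in Dnmt1-KO. The Tdrkh probe (chr3:94498407-94498459, -288 bp) read 11.95 and 7.26, and the Stag3 probe (chr5:138510162-138510206, -154 bp) 13.24 and 6.43. The Serf1 probe (chr13:101208133-101208180, -148 bp) read 10.74 and 3.40, the H2bc1 probe (chr13:23941897-23941947, -301 bp) 10.47 and 5.26, and the Eomes probe (chr9:118326106-118326163, -907 bp) 11.78 and 3.30. The Ak1, Psme3, Hdac6 and Dbx1 probes hold no CpG, and a sheared fragment reaches well beyond a probe.

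A unit is 1 median absolute deviation (MAD) of the probe log2 ratios of IP over input on that array, counted from the array median. This scale was used because the raw spread differed with genotype. The MAD was 0.233 and 0.230 on the log2 scale for WT on designs 1 and 2, against 0.538 and 0.502 for Dnmt1-KO. A promoter level is the mean over probes within 1000 bp of an annotated start, for 15665 promoters with at least 4 probes (7887 on design 1 and 7778 on design 2, median 9 probes). The SD or SE given with a level or a difference is over the probes of a promoter. It covers probe scatter, not variation between cultures or hybridisations, and neighbouring probes share DNA fragments.

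The Dnmt1-KO arrays stood apart before any promoter was compared. They came from another scanner model (G2505C against G2505B) and software version (10.1.1.1 against 9.5.3.1), per the file headers. Their input channel was more uneven: the SD of log2 input intensity was 2.46 and 2.47 on the Dnmt1-KO arrays, 0.973 and 1.06 on the WT arrays and 1.03 and 1.06 on the Eed-KO arrays. Input followed probe GC content more closely in Dnmt1-KO (Pearson r across probes 0.705 and 0.714) than in WT (0.398 and 0.424). Across 438 genome bins of 5 Mb, the input difference between Dnmt1-KO and WT tracked GC with r = 0.961 and the difference in Rybp ratio with r = 0.713. At 32157 probes (6.78%) the Dnmt1-KO input exceeded its usual excess over WT by at least 8-fold. Genotype cannot be told apart here from scanner, software and hybridisation.

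Ranks of promoters agreed broadly between the genotypes, with less overlap at the top than between WT and Eed-KO. Spearman's rho of promoter levels was 0.772 for WT and Dnmt1-KO (0.776 and 0.768 on the 2 designs) and 0.879 for WT and Eed-KO. Of the 783 promoters in the top 5% of their design in WT, 349 (44.6%) were also in the top 5% in Dnmt1-KO, and 554 (70.8%) in Eed-KO. The 349 shared promoters are 2.23% of all promoters. Those that left the top 5% mostly stayed high: the 434 promoters in the WT set alone had a median Dnmt1-KO percentile rank of 88.3, and the 434 in the Dnmt1-KO set alone had a median WT rank of 87.9. Crossing from the top 5% to the lower part of the ranking (under percentile 50) was rare. It happened at 10 promoters of the WT set (Btn2a2, Cxcl12, Dbx1, Grm3, Hook1, Nol4, Slc25a21, Tacr3, Tasp1 and Trim68) and at 11 of the Dnmt1-KO set (1700011J10Rik, Adi1, Ak1, Enkd1, Knstrn, Maff, Pdha1, Pou2f1, Psme3, Scamp5 and Zfp142).

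**Figure D1:**
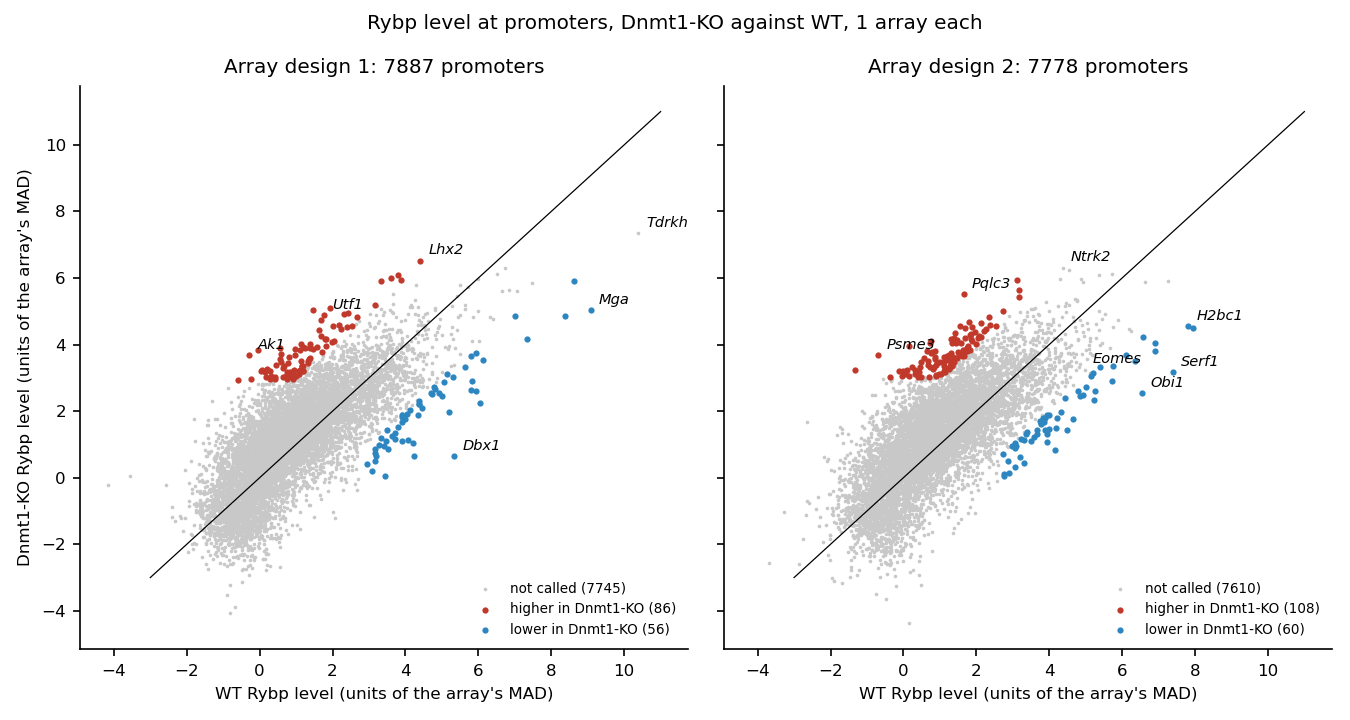
Rybp level of each promoter on the WT array (x axis) and the Dnmt1-KO array (y axis) of the same design, in units of the array's MAD, 1 point per promoter, with the diagonal of equal levels. Red points (86 and 108 on designs 1 and 2) were called higher and blue points (56 and 60) lower in Dnmt1-KO. The highest WT promoters, such as Tdrkh and Mga, lie under the diagonal.

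By the rule of size, 194 promoters (1.24% of those measured) were higher and 116 (0.741%) lower in Dnmt1-KO. The rule asked that a promoter be in the top 10% of its design in either genotype (2270 promoters, 14.5%), differ by at least 2 units and move in rank the same way. The same rule for Eed-KO against WT, which uses the same WT arrays, called 4 promoters higher (0.0255%) and 50 lower (0.319%). The higher promoters had a median level of 1.19 units in WT and 3.63 in Dnmt1-KO. Of these, 115 were in the Dnmt1-KO top 5% and 4 in the WT top 5%. The lower promoters went from 4.14 to 1.81 at the median, and 34 of them ended under percentile 50. In Eed-KO, against the same WT arrays, 92 of these 116 were on the same side, with a median difference of -0.88 against -0.25 over all promoters. Of all promoters, 33.6% had a difference above 0 in Eed-KO. Of the 194 higher promoters, 75 were on the same side in Eed-KO, with a median difference of -0.18. Among the 2270 promoters that could be called, the median was 3.59 CpG per 100 bases of probe and 49.9% GC. The higher promoters were close to this pool (3.80 CpG and 50.7% GC), and the lower ones were poorer in both (2.46 and 44.4%). A direction on this scale is relative to the spread of the array. On log2 ratios that were not scaled, the median over all promoters was 0.41 higher in Dnmt1-KO, 1132 promoters were called higher and 12 lower (1138 and 6 with normexp background correction), and 64 of the 116 lower promoters had a lower log2 ratio in Dnmt1-KO. The counts called under 6 further settings together (quantile mapping, 3 corrections for GC or input, medians over probes, and leaving out probes with raised input) were 63 of the 194 and 66 of the 116.

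Among promoters with higher occupancy, Ak1, which encodes adenylate kinase 1 of nucleotide metabolism, had the largest gain that kept its call under all 6 further settings. Its 11 probes averaged -0.29 ± 0.88 units (SD) in WT, 0.25 in Eed-KO and 3.68 ± 1.26 in Dnmt1-KO, a difference of 3.97 ± 0.47 (SE), with all 11 probes higher and no probe of raised input. Its rank went from percentile 20.8 to 96.5 and its log2 ratio from -0.07 to 1.98. The lowest Dnmt1-KO probe of Ak1 (2.36) exceeded the highest WT probe (1.80). Higher signal was not confined to this window: Dnmt1-KO was above WT at 35 of 39 probes from -5013 to 2317 bp. The largest input excess in the window was 2.80 on the log2 scale, under the cut-off of 3 for raised input.

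Further promoters called higher came from unrelated functions. Pqlc3, a membrane transporter of the PQ-loop family, went from 1.65 to 5.52 units (difference 3.87 ± 0.63). Spag4, a sperm-associated protein of the nuclear envelope, went from 1.47 to 5.04 over 5 probes. Knstrn, a mitotic spindle protein, went from -0.05 to 3.84 with a wide error (3.89 ± 1.37). Zfp142 went from 0.55 to 3.90, Rhebl1, a small GTPase, from 0.76 to 4.10, and Smyd4 from -0.13 to 3.21. Slc25a25, a mitochondrial carrier, went from -0.24 to 2.98. It lies at chr2:32273521-32274435, near Ak1 (chr2:32450592-32452407), as does 1110008P14Rik (chr2:32203097-32204646), also called higher. Pdha1, the X-linked subunit of pyruvate dehydrogenase, went from 0.72 to 4.05, but over the 6-probe run chosen on the Eed-KO arrays its difference was -0.62. Each of these had all or all but 1 of its probes higher in Dnmt1-KO.

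Some high differences rested on few probes or did not hold throughout. Psme3, a proteasome activator subunit, went from -0.69 to 3.69 units (4.38 ± 1.85). One WT probe at 483 bp read -16.19 there, and the difference of medians over probes was 2.50. Adi1 had a difference of 3.82 ± 2.35 by the mean and 1.69 by the median. Hdac6, a cytoplasmic deacetylase encoded on the X chromosome, had a difference between means of 4.57 ± 1.51, with 9 of 12 probes higher, 2 probes saturated in Dnmt1-KO, which caps their values, and a difference of medians of 2.40. Inip was at -0.58 in WT and 2.94 in Dnmt1-KO and did not keep its call under all 6 further settings.

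Dbx1, a homeobox gene of the neural tube, had the lowest difference. Its 11 probes averaged 5.33 ± 1.98 units in WT, 6.05 in Eed-KO and 0.65 ± 1.24 in Dnmt1-KO, a difference of -4.68 ± 0.45, with all 11 probes lower and the rank moving from percentile 99.5 to 36.0. Its log2 ratio also dropped, from 1.24 to 0.35, so Dbx1 is among the 12 promoters called lower on unscaled ratios as well. The Dnmt1-KO input formed a hump over this promoter, reaching an intensity of 32922 at 106 bp, where WT input was 64.4. Without the 6 probes of raised input the difference was -4.30. The part of this input in the result was not tested.

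The 11 other promoters also called lower without scaling began with LOC622129 (3.43 to 0.06 units, log2 0.80 to 0.03), Cxcl12 (4.23 to 0.66, log2 0.99 to 0.36) and Nol4 (4.16 to 0.84, log2 0.96 to 0.42). Cxcl12 encodes a chemokine that guides migrating cells. The rest were Pcdha11, Gpr26, Rpl38, Rxfp3, Hoga1, Grik2, Cftr and Esrp1. Grik2 encodes a kainate receptor, Rxfp3 a relaxin family receptor and Cftr a chloride channel.

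Several large drops in units came with a higher log2 ratio. Mga, the scaffold of the variant PRC1 named above, went from 9.08 ± 1.50 to 5.03 ± 0.96 units over 4 probes (difference -4.05 ± 0.85), while its log2 ratio went from 2.12 to 2.71 and its percentile rank was 99.98 in WT and 99.55 in Dnmt1-KO. Cntln, a centrosomal protein, went from 8.38 to 4.86 units with log2 1.95 to 2.62. Spata22, a meiotic recombination protein, went from 7.93 to 4.49 units with log2 1.82 to 2.25. H2bc1, a testis-specific histone H2B, went from 7.80 to 4.56 units with log2 1.79 to 2.29, and Pcdh10 from 5.93 to 2.62 units with log2 1.38 to 1.41. Eed-KO levels were 7.67 at Mga, 5.19 at Cntln, 6.48 at Spata22, 7.02 at H2bc1 and 6.81 at Pcdh10. Cntln was thus nearly as low in Eed-KO as in Dnmt1-KO. Serf1 (7.39 to 3.18 units, log2 1.70 to 1.60), Obi1 (6.53 to 2.54, log2 1.50 to 1.27) and Slc33a1 (6.04 to 2.25, log2 1.41 to 1.21) had a lower log2 ratio too, by a smaller step than Dbx1.

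**Figure D2:**
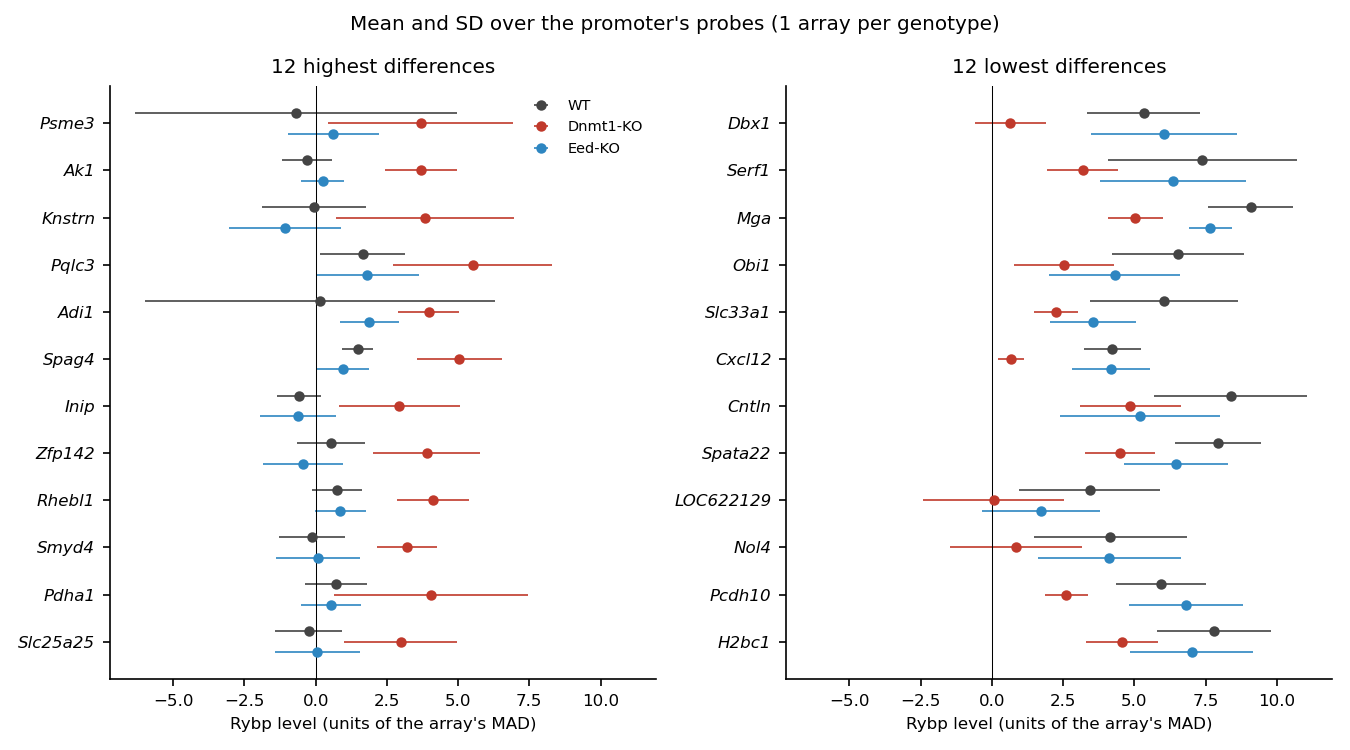
Mean Rybp level in units of the array's MAD for the 12 promoters with the highest and the 12 with the lowest difference between Dnmt1-KO and WT, with bars of 1 SD over the probes of the promoter and 1 array per genotype. Eed-KO levels are given beside them. At Dbx1 and Cxcl12 the Dnmt1-KO level is near 0, whereas at Mga, Cntln, Spata22 and H2bc1 it stays above 4 units, and these last 4 were higher in Dnmt1-KO on unscaled log2 ratios.

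Germline genes were among the promoters with the highest Rybp levels in both genotypes. Tdrkh, which anchors the piRNA machinery to mitochondria, was the highest promoter of all in WT (10.38 ± 3.03 units over 7 probes) and in Dnmt1-KO (7.35 ± 1.18), and stood at 8.45 in Eed-KO. Since its rank did not move, it was not called lower. Over 23 piRNA and germ-cell RNA genes, the median level was 3.42 units in WT and 3.07 in Dnmt1-KO, with a median difference of -0.34 (quartiles -1.19 and 0.15) against 0.26 over all promoters. On unscaled log2 ratios the same median was 0.62 higher in Dnmt1-KO. In Eed-KO, against the same WT arrays, the median difference was -0.52. None was called higher and 4 were called lower: D1Pas1 (8.63 to 5.91), an RNA helicase, Stk31 (6.99 to 4.87), Mael (5.80 to 3.67), a transposon-silencing factor, and Henmt1 (5.62 to 3.32), which methylates piRNA ends. In Eed-KO D1Pas1 stood at 4.96, under its Dnmt1-KO level. Ddx4 (5.89 to 4.74), Dazl (5.36 to 5.01), Boll (4.51 to 4.59) and Fkbp6 (3.74 to 4.84) stayed within 2 units.

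Over 33 meiosis genes the median level was 3.91 in WT and 2.91 in Dnmt1-KO, a median difference of -0.70 (quartiles -1.62 and 0.22) that was 2.49 units of the WT array on unscaled ratios. The Eed-KO median difference, from the same WT arrays, was -1.14. There were 7 called lower and 1 higher. Lower were H2bc1, the cohesin subunits Stag3 (7.34 to 4.16) and Smc1b (4.79 to 2.60), the synaptonemal complex protein Tex12 (6.35 to 3.51), Msh4 (5.32 to 3.02), which acts on crossovers, Spo11 (4.77 to 2.73), which makes meiotic breaks, and Nxt2 (3.19 to 0.62). The recombinase gene Dmc1 was called higher (1.51 to 3.78), although its difference of medians over probes was 0.65. In the top 5% were 18 meiosis promoters in WT, 12 in Dnmt1-KO and 11 in both. Slc25a31 (7.48 to 5.86) and Sycp1 (5.62 to 5.08) remained near the top.

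Counting both germline lists together, 11 of 56 promoters (19.6%) were called lower. These lists were chosen with earlier results of these data known. They count H2bc1, which is also among the histone genes, and Nxt2, and they leave out Spata22, which was called lower. High promoters in general were called lower more often, so the count was also taken among high promoters: of the WT top 5%, 10 of 30 germline promoters (33.3%) and 90 of all 783 (11.5%) were called lower, and 20 of the 30 (66.7%) against 349 of the 783 (44.6%) were still in the Dnmt1-KO top 5%. Choosing on the WT level itself favours drops. At promoters of at least 3 units on the Eed-KO arrays, which enter neither side of the difference, the count was 10 of 26 germline promoters (38.5%) and 72 of all 851 (8.46%). The Eed-KO arrays share scanner model and software version with the WT arrays. Their ranks were also closer to WT (Spearman's rho 0.879) than those of Dnmt1-KO (0.772), so this choice can favour drops too. Of the 783 promoters in the Eed-KO top 5%, 544 had a difference under 0. With increasing Eed-KO level the median difference over all promoters went from 0.40 (0 to 1 unit) through -0.40 (3 to 4 units) to -1.41 (5 units and above, 77 promoters). The share called lower went from 5.47% at 3 to 4 units to 29.9% at 5 units and above, and germline promoters include some of the very highest, so these counts are not at matched level.

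The X-linked testis and Rhox genes, of which 13 had a promoter level, were low in both genotypes (medians 0.65 and 0.58). Rhox genes are a homeobox cluster whose promoters are textbook targets of DNA methylation. Rhox11 was called higher (1.63 to 3.82, 5 of 6 probes), Rhox9 went from 1.98 to 3.88 without reaching 2 units, and the RNA export gene Nxf2 was called lower (6.58 to 4.24). Among 43 imprinted genes the median difference was 0.14, with 3 called higher (6.98%) and 2 lower (4.65%). Of all promoters 1.24% were called higher and 0.741% lower. In the top 10% of either genotype, which the rule requires, were 16 of the 43, and 14.5% of all promoters. Higher were Peg3 (1.11 ± 1.28 to 3.84 ± 1.23, 7 of 7 probes), a maternally imprinted zinc-finger gene, Gab1 (1.34 to 3.55) and Ppp1r9a (0.91 to 3.08), and lower were Calcr (3.62 to 1.27) and Ndn (3.51 to 1.44). Peg3 ranked at percentile 60.9 in WT and 97.2 in Dnmt1-KO and kept its call under all 6 further settings. Gab1, Calcr and Ndn did not keep theirs.

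Developmental regulators are the classical Polycomb targets. Of the developmental factors in the WT top 5%, about as many stayed there in Dnmt1-KO as left it, a share near that over all promoters. The 124 developmental transcription factors had medians of 3.54 and 3.27 units and a median difference of -0.19 (0.86 on unscaled log2 ratios), with 2 called higher and 9 lower. Lower were Pax3 (5.19 to 1.96), Evx2 (5.83 to 2.89), Nkx2-3, Tbx15 (6.12 to 3.52), Tbx1, Evx1, Sox17, Isl1 and Isl2, and higher were Sox3 (1.95 to 4.39) and Lhx2 (4.40 to 6.52). Within the WT top 5%, 9 of 69 developmental factors and 90 of all 783 promoters (11.5%) were called lower, so the share of this list was near that of other high promoters. After Tdrkh, Lhx2, a LIM homeobox gene, had the highest level on the Dnmt1-KO arrays, with 4 of 6 probes higher than in WT. Next came the neurotrophin receptor Ntrk2 (4.37 to 6.31), the clock-related factor Bhlhe41 (6.74 to 6.30), the ligand Bmp6 (4.54 to 6.23) and Gadd45g. Of the 124 developmental factors, 69 were in the WT top 5%, 47 in the Dnmt1-KO top 5% and 34 in both. The 34 are 49.3% of the 69, against 44.6% (349 of 783) over all promoters in the WT top 5%. The 33 Hox promoters had a median difference of -0.73 units (quartiles -1.58 and -0.10), which was 0.57 on unscaled log2 ratios. Their median rank was 96.1 in WT and 86.5 in Dnmt1-KO. There, 16 dropped by at least 10 percentile ranks (27.9% of all promoters did) and none gained as much. By the 2-unit rule 1 was called, Hoxa2 (4.36 to 2.23), which patterns the hindbrain. Hoxd13 (4.58 to 4.95) and Hoxa4 (4.27 to 4.93) did not share the drop. Among 57 signalling ligands the median difference was 0.04, and Fgf9 (5.15 to 3.05) and Wnt3 (3.94 to 1.88) were called lower.

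Eomes, a T-box gene of early mesendoderm, shows a change in shape rather than a call. Its level was 4.97 ± 2.99 units in WT, 5.77 in Eed-KO and 3.25 ± 1.90 in Dnmt1-KO (difference -1.72 ± 1.06). Upstream, the probe at -907 bp read 11.78 in WT and 3.30 in Dnmt1-KO. Downstream, the probe at 870 bp, which holds 6 CpG, read 3.16 and 8.01.

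The pluripotency genes did not shift as a group: 38 promoters had medians of 1.40 and 1.66 units, and the median difference of 0.30 was close to the 0.26 of all promoters. Utf1, an ES cell chromatin factor, was the single member called higher. It averaged 1.77 ± 1.99 units in WT, 2.09 in Eed-KO and 4.88 ± 3.37 in Dnmt1-KO, a difference of 3.11 ± 0.72 with 9 of 10 probes higher. Its peak probe at 590 bp read 2.18 in WT and 9.40 in Dnmt1-KO. Dnmt1-KO input was also raised here, at 3624 against 40.7 at the -106 bp probe, and without the 3 probes of raised input the difference was 3.15. In Dnmt1-KO 2 of its probes were saturated.

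Promoters of Polycomb complex genes lay above the median of all promoters, and other chromatin lists did not do so throughout. The median difference over 41 Polycomb promoters was 0.77 units (quartiles 0.19 and 1.20), with 32 above 0 (60.6% of all promoters were), and 0.29 after removal of probe and regional GC trends. None was called higher. Epop, a PRC2 cofactor, went from 2.14 to 3.92, E2f6 from 4.47 to 4.99, Bcor from 1.88 to 3.39, Aebp2 from 4.47 to 2.75 and Ezh2 from 2.91 to 2.02. Rybp at its own promoter went from 2.64 ± 0.60 to 2.92 ± 0.88 (percentile 88.7 to 89.8), Eed from 1.79 to 2.13 and Dnmt1 from -0.05 to 1.41. Occupancy of the Dnmt1 and Eed promoters does not check either knockout. The 34 genes of the DNA methylation machinery had a median difference of 0.26 with none called, and Gadd45g, linked to DNA demethylation, was high in both (5.73 and 6.13). Of 16 histone deacetylase genes Hdac6 was called, and the list's median difference of 0.57 was -0.14 on design 1 alone and -0.053 with the input trend removed.

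Housekeeping families differed from each other. The 83 ribosomal protein promoters had medians of 1.51 units in WT and 1.01 in Dnmt1-KO, and their median rank went from 70.5 to 45.2. There were 54 that dropped by at least 10 percentile ranks and 5 that gained as much (27.9% and 27.5% of all promoters did). Their median difference was -0.33 units in Dnmt1-KO and -0.84 in Eed-KO, both against the same WT arrays. By the rule of size 5 were lower and none higher: Rpl38 (2.88 to 0.15), Rps4x (3.66 to 1.43), Rpl4, Rpl14 and Rpl3. Their median unscaled log2 difference was 0.19 against 0.41 over all promoters. The 82 oxidative phosphorylation promoters had a median difference of 0.25, like all promoters, and none was called. Among 47 histone gene promoters the median difference was -0.04. H2bc1 and H2ac1 (6.90 to 4.04), which face each other and share probes, were called lower.

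Clustered protocadherins, cell-surface adhesion genes with promoters chosen singly in neurons, had the lowest median difference of the 20 lists on the MAD scale without correction. Over 45 promoters, all on design 2, the medians were 1.45 and 0.07 units and the median difference was -0.998 (quartiles -1.55 and -0.33). It was -0.17 on unscaled log2 ratios and -0.73 units after removal of GC trends, where Hox (-0.93) and meiosis (-0.88) genes were lower. In rank 39 dropped by at least 10 and none gained as much. By size Pcdha11 (2.76 to 0.04) and Pcdhgc4 (4.20 to 1.49) were called lower, while Pcdhac2 (3.27 to 4.18) and Pcdhgc3 (2.42 to 3.11) went the other way. Median GC content of their probes was 37.5%, and in Eed-KO, against the same WT arrays, their median difference was 0.39. The 681 olfactory receptor promoters (medians -0.70 and -1.20) and the 93 keratin-associated and vomeronasal receptor promoters (-0.57 and -1.24) were at the bottom of both genotypes. No member of either was called. The 240 Zfp genes had a median difference of 0.29. Zfp142 and Zfp36 (1.67 to 4.75), a destabiliser of mRNA, were called higher, and Zfp503 (5.72 to 2.89) and Zfp280d (6.10 to 3.69) lower. The 58 terminal differentiation genes had a median difference of -0.11 with none called.

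Feeder fibroblasts could contribute chromatin to these samples, in an amount that was not measured. The 32 fibroblast marker promoters had medians of 1.53 and 2.02 units and a median difference of -0.15, and 12 had a difference above 0. Pdgfra (4.39 to 2.29) and Prrx1 (3.90 to 1.82) were called lower. Col5a1 and Loxl1 went the other way by nearly as much, with differences of 1.97 and 1.96, without reaching 2 units. Since the arrays measure promoter occupancy and not expression, they do not check the cell type.

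**Figure D3:**
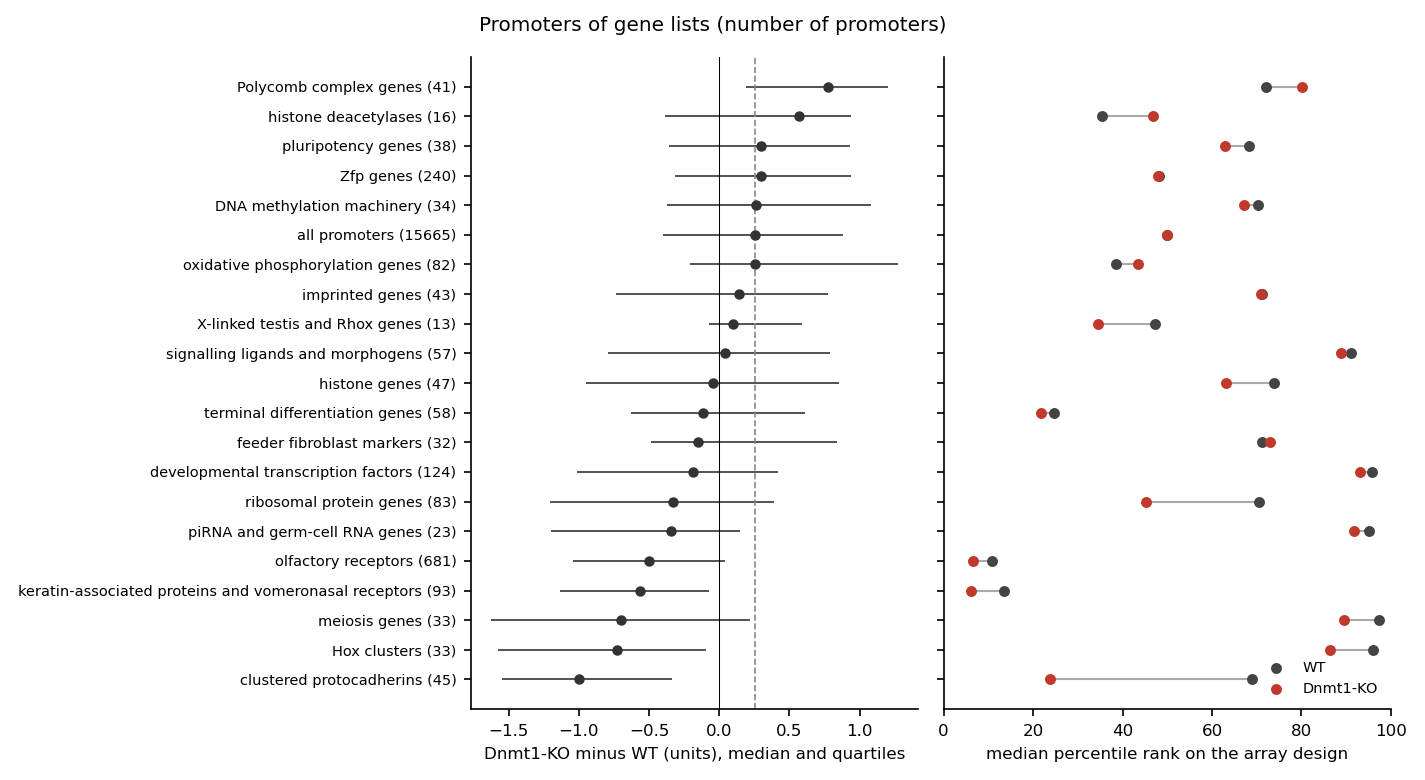
Left, the median difference between Dnmt1-KO and WT in units for the promoters of each gene list, with bars from the lower to the upper quartile and a dashed line at the median of all promoters (0.26). Right, the median percentile rank in WT and Dnmt1-KO. Clustered protocadherins and ribosomal protein genes show the widest gaps in rank, and on unscaled log2 ratios the negative medians turn positive except those of clustered protocadherins, olfactory receptors, and keratin-associated proteins and vomeronasal receptors.

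Differences were ordered by CpG density before any GC correction. Promoters under 0.5 CpG per 100 bases had a median difference of -0.23 units (1580 promoters), those from 2 to 3 had 0.35 (3277) and those of 4 and above had 0.53 (2909). In the densest class 278 promoters were in the WT top 5% and 407 in the Dnmt1-KO top 5%, with 85 called higher and 12 lower. In the class from 1 to 2, 103 and 50 were in the top 5%, with 21 higher and 27 lower. After removal of probe and regional GC trends this order was kept only among the CpG-poor classes. Those under 0.5, from 0.5 to 1 and from 1 to 2 stood at -0.16, -0.06 and 0.11. From 2 CpG upwards it was flat: the class from 2 to 3 stood at 0.23, the class from 3 to 4 at 0.23 and the densest class at 0.19, against 0.12 over all promoters. Among probes of like GC content (50 to 55%), the median difference was 0.18 at 0 CpG and 0.46 at 4 CpG. At 40 to 45% GC there was no such order, with 0.08 at 0 CpG, 0.02 at 1 and at 2, 0.04 at 3, and 0.24 at the 355 probes with 4 CpG. The part of the input's own GC dependence in these orders was not tested.

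At promoters high on the Eed-KO arrays, the difference from WT was smallest just downstream of the start and larger on the flanks. Over all probes it was instead largest within 500 bp of the start. The 783 promoters in the Eed-KO top 5% were chosen without the arrays compared, but on arrays sharing scanner model and software with WT. Their median probe difference was 0.01 units from 0 to 500 bp downstream of the start. It was -1.07 from -1000 to -500 bp and -0.86 from 1000 to 2000 bp. With probe and regional GC trends removed these medians were -0.34, -1.16 and -0.93, so Dnmt1-KO no longer met WT downstream of the start. The level at these promoters was 3.78 units in WT and 3.36 in Dnmt1-KO at the median, and 554 and 356 of them were in the top 5% of those genotypes. Over all probes the difference was 0.40 from -500 bp to the start, 0.42 from the start to 500 bp, and -0.15 from 1000 to 2000 bp, and the 0.42 became 0.13 with GC trends removed. Peak positions moved more than between WT and Eed-KO. At 770 promoters the median distance between the highest positions in WT and Dnmt1-KO was 367 bp, with 59.4% within 500 bp, against a median of 0 and 80.1% within 500 bp for WT and Eed-KO.

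**Figure D4:**
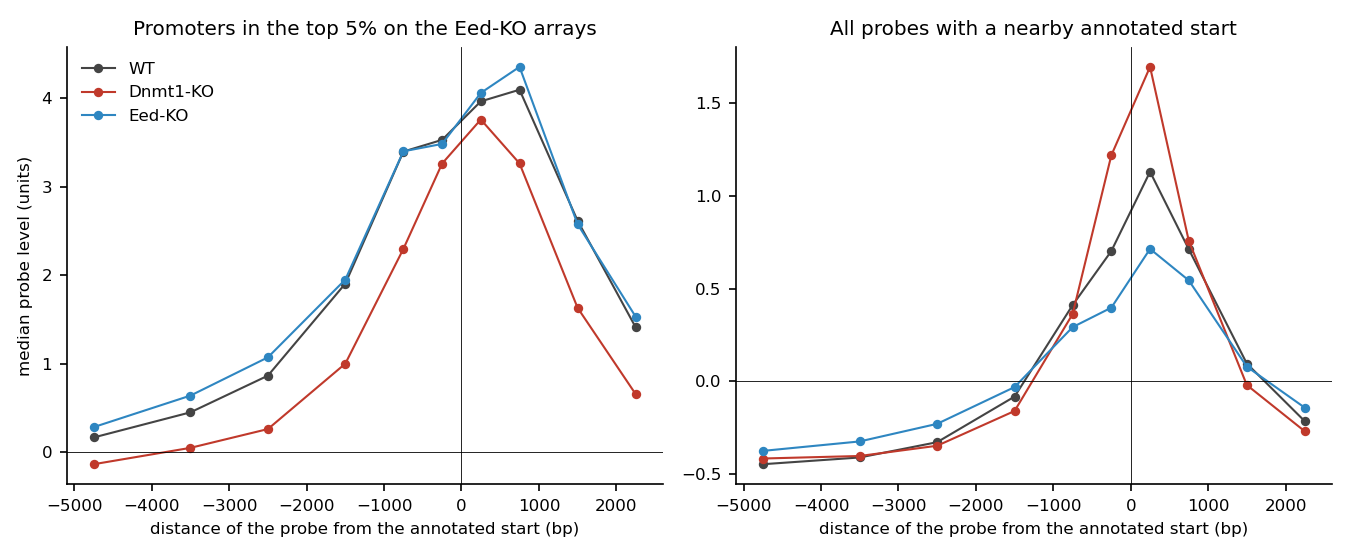
Median probe level in units by distance from the annotated start (bp), for WT, Dnmt1-KO and Eed-KO, at the 783 promoters in the top 5% on the Eed-KO arrays (left) and over all probes (right). On the left the Dnmt1-KO line comes close to the WT line near the start, before any GC correction, and lies under it on both flanks, and on the right it is highest within 500 bp of the start.

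Probe profiles show these patterns at single genes. At Ak1 the Dnmt1-KO signal lay over the whole window and beyond it. At Utf1 all genotypes shared a domain downstream of the start, which in Dnmt1-KO was higher and reached closer to the start. At Tdrkh the peak probe was the same in all genotypes, at 105 bp, with 14.57 units in WT, 12.15 in Eed-KO and 8.93 in Dnmt1-KO. Dnmt1-KO IP was at the saturation limit at 3 Tdrkh probes, which caps the ratio there. Its input reached 3005 against 48.2 in WT at -409 bp. Dbx1 had a plateau downstream of the start in WT and Eed-KO that was low in Dnmt1-KO.

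**Figure D5:**
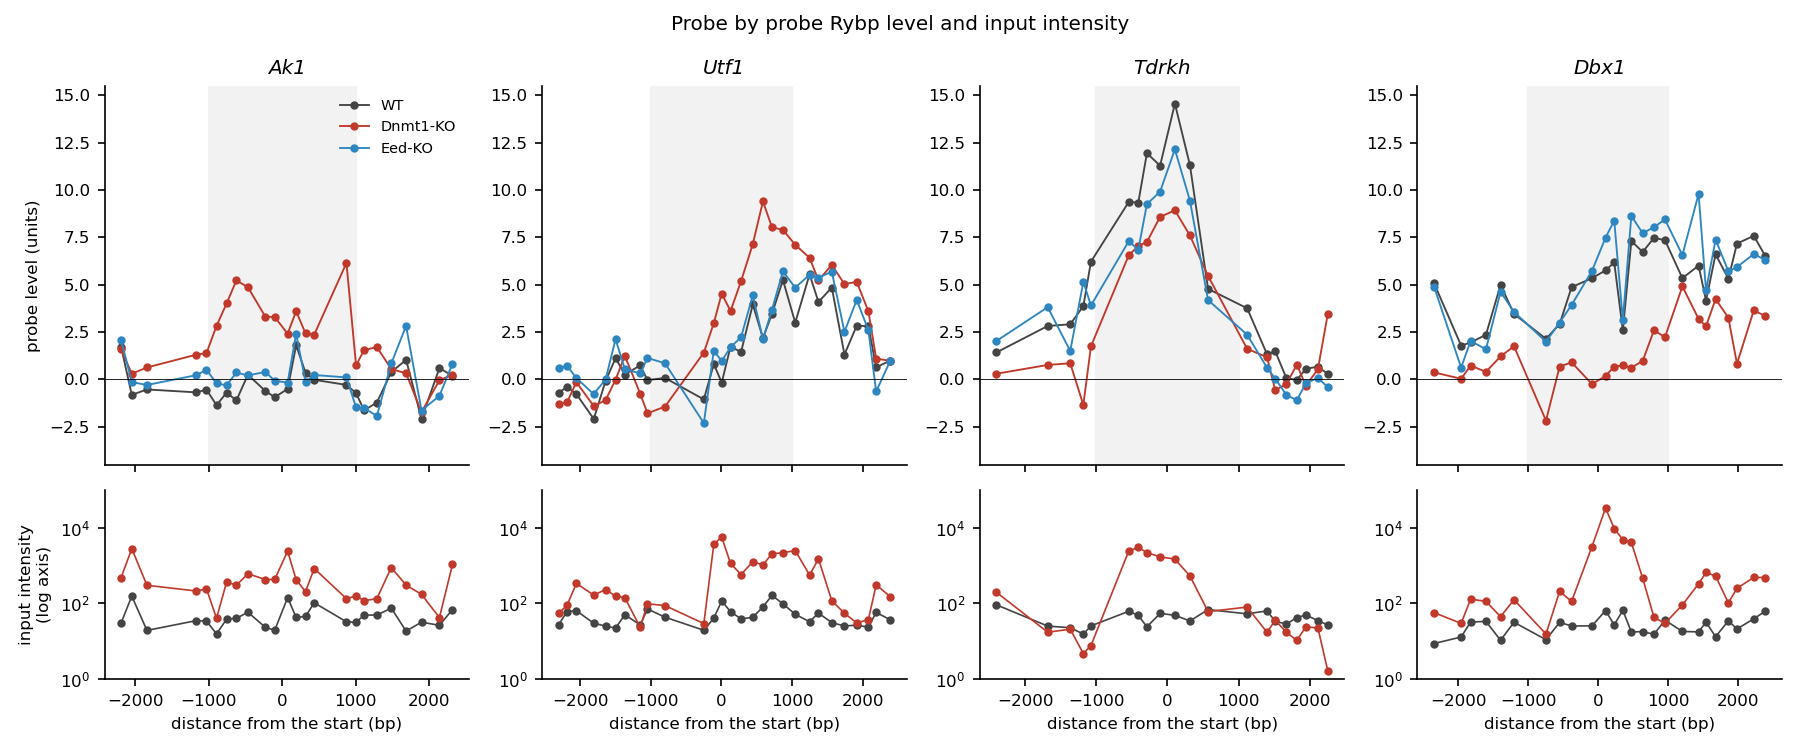
Probe level in units (top) and input intensity on a log axis (bottom) against distance from the annotated start (bp) at Ak1, Utf1, Tdrkh and Dbx1, 1 array per genotype, with the window of 1000 bp on each side shaded. Dnmt1-KO lies above WT throughout the window at Ak1, and below it at Dbx1, where its input rises to 32922.

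Motifs of the Mga and E2f6 complex were counted in RefSeq promoter windows (GRCm38.p6, 250 bases before to 50 after the start), available for 12234 of the 15665 promoters. CACGTG, its own reverse complement, was in 10.2% of these and in 24.0% of the promoters in the top 5% of both genotypes (63 of 262). It was in 16.6% of those in the WT set alone, 12.5% of the Dnmt1-KO set alone, 18.5% of the lower promoters (17 of 92) and 11.8% of the higher ones (18 of 152). Over all 32851 RefSeq windows the share was 7.15%. GGCGGGA, read on both strands, which resembles an E2F site and does not overlap CACGTG in sequence, was in 19.6% of array promoters, 31.7% of the shared top 5%, 20.7% of the lower and 23.7% of the higher promoters, and 11.3% of all windows. Among the promoters that could be called, which hold the higher and lower ones, CACGTG was in 14.9% (256 of 1715) and GGCGGGA in 26.4%. These shares were not matched for CpG or GC. At equal CpG count, probes that hold CACGTG were not higher in WT than those without it: with 2 CpG the medians were 0.58 (666 probes) and 0.81, and with 3 CpG 1.28 (245 probes) and 1.46. A match is a description of the letters and not a binding site. The windows printed below were picked because they hold CACGTG. Over the 250 bases before the start, Tdrkh, Mga, Spata22 and H2bc1, all high in both genotypes, hold no CACGTG. Neither do Dbx1, Utf1 and Ak1. The windows of 2 meiosis promoters high in both genotypes and of Psme3 are given on the gene strand for the 250 bases before the start, with CACGTG in capitals, to show where it lies: Stag3 at chr5:138280259-138280508 (plus strand), Slc25a31 at chr3:40708621-40708870 (plus) and Psme3 at chr11:101315963-101316212 (plus), all GRCm38.p6.
Stag3: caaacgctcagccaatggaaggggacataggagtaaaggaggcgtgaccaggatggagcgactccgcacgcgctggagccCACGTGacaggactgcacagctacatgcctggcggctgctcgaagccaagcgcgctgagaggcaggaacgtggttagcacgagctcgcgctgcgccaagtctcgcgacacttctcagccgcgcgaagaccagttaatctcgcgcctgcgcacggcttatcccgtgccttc
Slc25a31: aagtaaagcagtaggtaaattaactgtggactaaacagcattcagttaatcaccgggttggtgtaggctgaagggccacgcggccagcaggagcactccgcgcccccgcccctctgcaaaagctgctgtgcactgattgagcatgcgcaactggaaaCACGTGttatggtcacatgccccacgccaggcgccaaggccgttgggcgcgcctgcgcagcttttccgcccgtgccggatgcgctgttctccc
Psme3: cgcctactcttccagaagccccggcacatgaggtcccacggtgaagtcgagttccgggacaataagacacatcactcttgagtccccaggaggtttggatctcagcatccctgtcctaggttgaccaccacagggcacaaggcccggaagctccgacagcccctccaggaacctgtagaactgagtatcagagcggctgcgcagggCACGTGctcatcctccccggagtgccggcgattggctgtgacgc
The Stag3 and Psme3 probes printed earlier lie inside these windows.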

How the data were processed

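Per the file headers, the deposited red (IP) and green (input) intensity values are background-subtracted, dye-normalised signals of Agilent Feature Extraction, version 9.5.3.1 for WT and Eed-KO and 10.1.1.1 for Dnmt1-KO; the submitters' processing notes list 9.5.3.1 for every sample. The authors' deposited value table holds log10 ratios that equal the scanner log10 ratios of the same array plus a constant, to within 0.001 at 99.0% of probes or more. Its columns had medians of -0.025 and -0.027 (WT) and -0.121 and -0.114 (Dnmt1-KO); why the constants were chosen is not stated. From 474380 non-control probes, 474138 carried no outlier flag and were used; saturated spots were kept. Log2(red/green) was centred on the array median and divided by the array's MAD. Distances and genes came from the Dnmt1-KO files, and symbols from a GRCm38.p6 table (16948 of 17601 accessions matched). The rules are fixed sizes, not tests. The gene lists and the genes compared were chosen with earlier results of these data known, and kinases and a binding protein were trimmed from the ribosomal list after values were seen. Named promoters were the 12 highest and 12 lowest differences with at least 4 in 5 probes in that direction, the 10 highest in WT, the 2 highest and 2 lowest of each list within the top 10%, and Rybp, Eed, Dnmt1, Utf1, Tdrkh and Eomes; not all are named. Other genes of a list, the 12 lower without scaling, the promoters that crossed percentile 50 and Lhx2's rank were chosen after their values were seen. In all, 17 other settings, and 4 chosen after seeing the data, were run in Python 3.11.15 (numpy 2.4.6, pandas 2.3.3) and, for normexp, limma 3.58.1 in R 4.3.3. The scripts were tested on simulated data.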

Additional observations from a re-analysis of the deposited data

How the results depend on the processing

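Without scaling, 1132 promoters were higher and 12 lower, and with normexp background correction 1138 and 6. Differences that were below 0 turned positive without scaling (in MADs of the WT array) and with normexp (in MADs of each array) for meiosis genes (2.49 and 1.11), Hox genes (2.45 and 1.60), Mga (2.55 and 1.34), Cntln (2.85 and 0.14), Spata22 (1.88 and 0.80), Pcdh10 (0.11 and 0.59) and H2bc1 (2.17 and 0.43). Medians of smaller size below 0 did likewise, for piRNA genes (2.68 and 1.38), developmental factors (3.695 and 2.29), ribosomal genes (0.82 and 0.22), fibroblast markers (2.49 and 1.31), histone genes and terminal differentiation genes. Quantile mapping gave 178 lower. Windows of 500 bp gave 413 higher and windows of 2000 bp 46. The 6-probe run chosen on Eed-KO gave 404 lower and a difference of -0.62 at Pdha1. Medians over probes gave 297 higher. A threshold of 1 unit gave 642 higher and 456 lower, and of 3 units 32 and 18. Design 1 alone gave 86 higher, 56 lower and 181 shared in the top 5%, and design 2 alone 108, 60 and 168. The top 1% shared 50 promoters and the top 10% 864. Histone deacetylases had a median of -0.14 on design 1 and -0.053 with the input trend removed. The cause of these changes was not tested, other than fewer promoters on a single design. All other values of the 3 counts stayed within 1.5 times. No paired analysis was possible because each genotype has 1 array per design. Signal over background limits dim probes: input was well above background at 88.1% and 85.8% of Dnmt1-KO probes. This flag was stricter there, with a multiplier of 13 against 2.6 on the WT arrays, where 99.9% of probes passed on each design. Median input intensity was higher in Dnmt1-KO (104 and 102) than in WT (33.4 and 35.6).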
